A study of Rattus norvegicus with 9 samples.

Results

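The glutathione S-transferases of the liver were followed across the 9 arrays of the series: 4 alpha-class genes (Gsta2, Gsta3, Gsta4 and Gsta5), the mu-class gene Gstm1, the theta-class genes Gstt1 and Gstt3, the kappa-class gene Gstk1 and the microsomal genes Mgst1 and Mgst2. All probe sets that the array annotation assigned to these symbols were taken, also where a probe set carried several symbols. This gave 9 probe sets for the 10 genes, of 31042 probe sets and 14217 genes with a probe set of their own in the whole series, and all 9 passed the filter on dim probe sets. Gsta2 and Gsta5 were read by 1 shared probe set, so their transcripts could not be told apart, and each other gene had 1 probe set.

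The livers came from male Goto-Kakizaki (GK) rats, a strain with spontaneous diabetes, and 1 array was run per rat. Control 1–3 carried the label undepression and had no stress protocol. CUMS 1–3 (label Major Depression) and CUMS 4–6 (label Mild Depression) went through 8 weeks of chronic unpredictable mild stress, with 3 rats in each group. Per the study's methods, rats were bought young and were kept for weeks until diabetes had appeared, before the experiment began. By the same methods stressed rats were housed singly. Every rat, controls included, received repaglinide, a glucose-lowering drug, by gavage before the livers were taken. Effects of single housing and of the stressors therefore cannot be told apart, and no group was free of diabetes or of repaglinide. How the labels Major and Mild were assigned was not given in the sources used here.

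Glutathione S-transferases join the tripeptide glutathione to electrophilic compounds such as epoxides, quinones and aldehydes from lipid peroxidation, which makes them more soluble and ready for export. The alpha, mu and theta enzymes are cytosolic, the kappa enzyme is found in mitochondria and peroxisomes, and the microsomal enzymes are unrelated membrane proteins. Hepatocytes hold large amounts of the alpha and mu enzymes, and many of the genes are induced through the transcription factor NRF2, which binds antioxidant response elements, and through the nuclear receptors CAR and PXR.

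The probe set with the largest difference between control and stressed rats was annotated to Gsta3, on chromosome 9 of the GRCr8 build at 31154989-31180653. The study lists the same probe set, under the symbol Gsta5, among genes higher in stressed rats. Gsta5 and Yc2 are older names of the Gsta3 gene in RefSeq. The gene now named Gsta5 lies on chromosome 8 at 87985768-87997766, and the transcript named in the primer list of the study for Gsta5 belongs to it. It was read by the probe set shared with Gsta2, which lies nearby on chromosome 8 at 88064829-88077168. By PCR the study also reported higher Gsta5 in the livers of stressed rats. Which of these genes its primers read was not tested here. The symbols of the array annotation are used here. Because alpha-class transcripts are alike in sequence, reading of one by the probes of another was not tested.

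RefSeq gave 2 start sites for Gsta3, and the 250 bases before each are shown because this gene carried the largest difference. Capitals mark a match to TGACNNNGC, the core of the antioxidant response element, searched on both strands.
Gsta3, first start, chr9:31154739-31154988, plus strand: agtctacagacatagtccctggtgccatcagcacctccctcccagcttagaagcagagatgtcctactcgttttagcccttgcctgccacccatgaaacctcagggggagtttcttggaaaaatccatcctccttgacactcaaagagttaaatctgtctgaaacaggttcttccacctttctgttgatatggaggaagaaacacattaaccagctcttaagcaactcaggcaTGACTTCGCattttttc
Gsta3, second start, chr9:31166793-31167042, plus strand: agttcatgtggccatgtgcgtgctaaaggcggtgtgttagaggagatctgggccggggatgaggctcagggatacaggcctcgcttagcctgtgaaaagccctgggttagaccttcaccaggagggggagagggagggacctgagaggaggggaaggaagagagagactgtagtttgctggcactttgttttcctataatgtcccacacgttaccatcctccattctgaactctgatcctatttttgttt
The upstream window of the first start held 1 match, on the plus strand, whose first base lay at -17 from the start. The second window, which lies inside the gene, held none. Promoters were on hand for 8 of the 10 genes (9 windows in all, none for Gstt1 and Mgst2). The Gsta3 match was the only one in these 9 windows. The windows of Gsta5, Gstm1 and Gstt3 also lie inside their genes, and sequence further upstream was not searched for any gene. Of all 33465 RefSeq promoter windows of the same length, 3373 (10.1%) held the motif. A match describes the letters only and does not show that a factor binds there.

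Values are MAS 5.0 signals on a linear scale, and fold changes come from log2 signals fitted with limma over all 18625 probe sets that passed the filter. Calls were made where p, adjusted over all of them by the Benjamini-Hochberg method, was under 0.05. The comparisons with control share the same 3 control rats and are not independent of each other. Signals of different probe sets are not read as relative amounts of RNA, since probes differ in brightness. Brightness ranks, positions against the array median and sums over markers are descriptions, and the brightest probe sets weigh most in the sums. In pieces of whole liver, fewer cells of a type and less RNA per cell cannot be told apart.

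Gsta3 had the smallest p of all probe sets in CUMS 4–6 and in all CUMS rats against control. Its protein, known as Yc2, conjugates the epoxide of aflatoxin. The signals were 85.5, 94.0 and 95.6 in control 1–3, 179, 249 and 334 in CUMS 1–3, and 276, 387 and 415 in CUMS 4–6. Every stressed rat lay above every control rat, while the ranges of CUMS 1–3 and CUMS 4–6 overlapped. The group means were 91.7 ± 5.43, 254 ± 77.8 and 359 ± 73.4 (SD, n = 3 each). The controls lay close together, and the spread among stressed rats of 1 label was wider than among controls. The log2 fold change against control was 1.43 (SE 0.25, limma adjusted p = 0.282) in CUMS 1–3, which is a fold of 2.69 with a 95% interval of 1.83 to 3.95. In CUMS 4–6 it was 1.95 (SE 0.25, limma adjusted p = 0.129), a fold of 3.86 with an interval of 2.63 to 5.68. Over all CUMS rats it was 1.69 (SE 0.22, limma adjusted p = 0.109), a fold of 3.22 with an interval of 2.31 to 4.50. None of these passed the threshold, and only 14, 2 and 1 of the 18625 probe sets, in the same order, had a larger fold upward. All 3 control signals were below the median signal of their own array (114, 115 and 133), so the size of the fold depends on how well the array reads dim signals. Adding 50 to each signal before log2 lowered the CUMS 1–3 value to 1.07 (limma adjusted p = 0.423), and by analysis of variance the adjusted p there was 0.884. Centring each array on its median signal made Gsta3 the only probe set called in CUMS 4–6 (log2 fold change 2.01, limma adjusted p = 0.0292) and in all CUMS rats (1.74, limma adjusted p = 0.0288).

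The probe set shared by Gsta5 and Gsta2, alpha-class enzymes that also bind bilirubin and reduce lipid peroxides, read 14883, 13622 and 10214 in control 1–3. It read 14620, 15362 and 12205 in CUMS 1–3 and 15851, 17572 and 19691 in CUMS 4–6. CUMS 1–3 overlapped with the controls, whereas each rat of CUMS 4–6 lay above all other rats. The log2 fold change was 0.13 (SE 0.15, limma adjusted p = 0.904) in CUMS 1–3 and 0.47 (SE 0.15, limma adjusted p = 0.744) in CUMS 4–6, a fold of 1.38 with an interval of 1.10 to 1.74. Gsta4, which conjugates 4-hydroxynonenal, an aldehyde from lipid peroxidation, showed no such separation. Its signals ran from 6081 to 6976 in the controls, from 6553 to 7475 in CUMS 1–3 and from 6671 to 9249 in CUMS 4–6. All 3 ranges overlapped, and the log2 fold changes were 0.09 (SE 0.12) and 0.23 (SE 0.12).

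**Figure D1:**
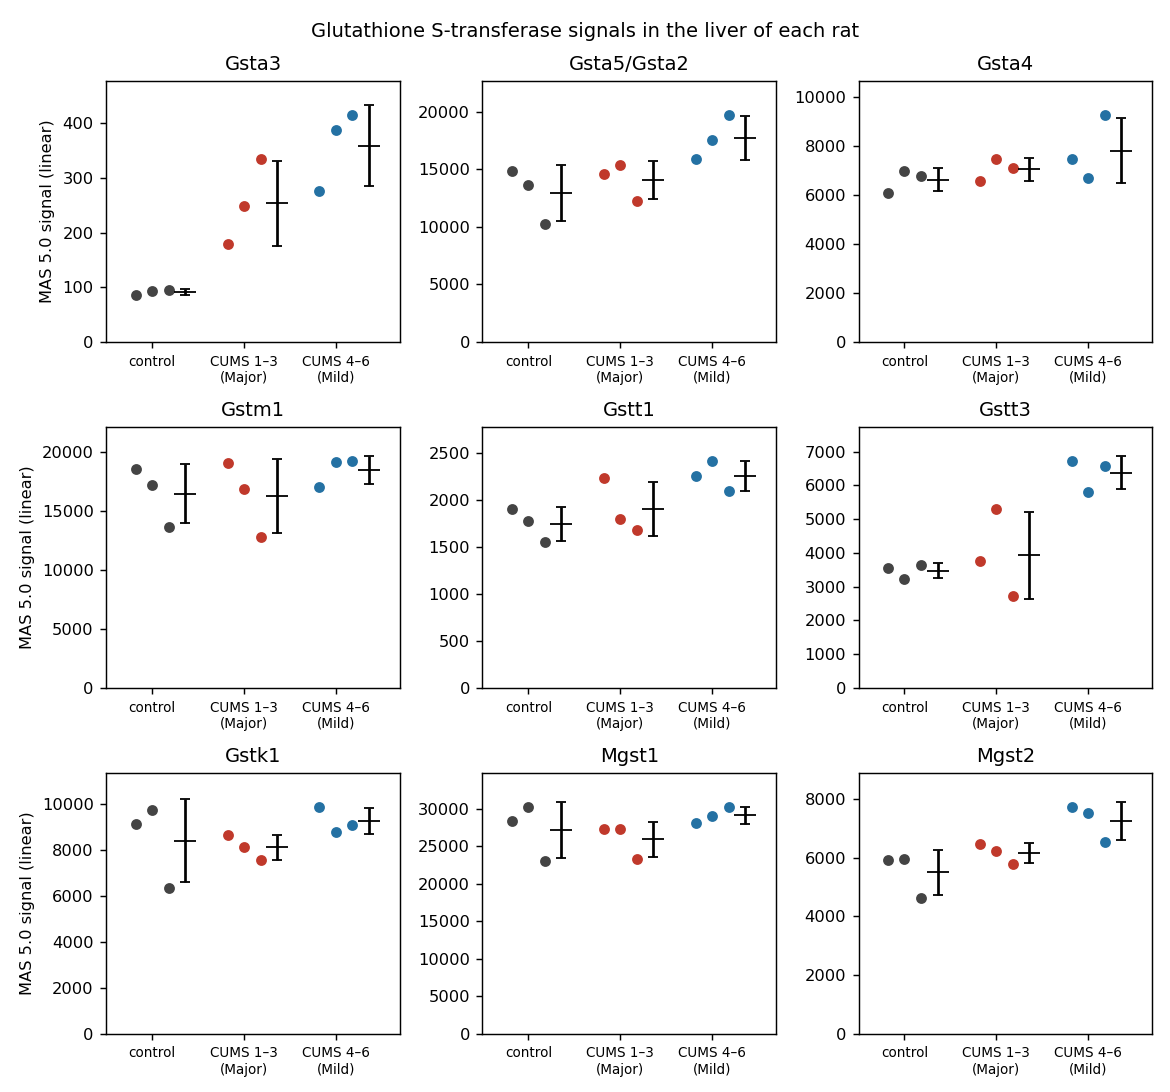
MAS 5.0 signal (linear scale, each panel from 0) of each of the 9 probe sets in every rat; points are rats, in the groups control, CUMS 1–3 and CUMS 4–6, with group means and SD. For Gsta3 all 6 stressed rats (179 to 415) lie above the controls (85.5 to 95.6), and for Gstt3 the CUMS 4–6 rats (5809 to 6727) lie above all others.

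Gstt3, a theta-class enzyme of the group that handles small halogenated compounds, had the next largest difference, and it was seen in CUMS 4–6. The signals were 3551, 3223 and 3645 in control 1–3, 3773, 5299 and 2732 in CUMS 1–3, and 6727, 5809 and 6583 in CUMS 4–6. CUMS 1–3 spread to both sides of the controls, and CUMS 4–6 lay above every other rat. Against control, the log2 fold change was 0.87 in CUMS 4–6 (SE 0.19, fold 1.83 with an interval of 1.36 to 2.47, limma adjusted p = 0.743) and 0.13 in CUMS 1–3 (SE 0.19, limma adjusted p = 0.935). Gstt1, which lies next to Gstt3 on chromosome 20 (12856068-12873020 and 12873618-12881974), read 1910, 1778 and 1555 in control 1–3. Its signals were 2238, 1802 and 1688 in CUMS 1–3 and 2264, 2420 and 2094 in CUMS 4–6. The CUMS 4–6 rats again lay above all controls, and CUMS 6 lay below CUMS 1. The log2 fold changes were 0.12 (SE 0.13, limma adjusted p = 0.903) in CUMS 1–3 and 0.37 (SE 0.13, limma adjusted p = 0.744) in CUMS 4–6.

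Mgst2, a membrane enzyme that can also form leukotriene C4, followed a like order. It read 5940, 5941 and 4620 in control 1–3, 6464, 6215 and 5780 in CUMS 1–3, and 7741, 7526 and 6525 in CUMS 4–6. The CUMS 4–6 rats lay above all others, with the lowest of them just above CUMS 1, and CUMS 3 lay below control 1 and control 2. The log2 fold change was 0.17 (SE 0.12, limma adjusted p = 0.831) in CUMS 1–3 and 0.41 (SE 0.12, limma adjusted p = 0.744) in CUMS 4–6, the latter a fold of 1.33 with an interval of 1.10 to 1.59. Mgst1, a membrane enzyme of the endoplasmic reticulum and outer mitochondrial membrane that also reduces lipid peroxides, varied least of the 9. It ran from 23020 to 30258 in the controls, from 23296 to 27373 in CUMS 1–3 and from 28078 to 30307 in CUMS 4–6. Its highest signal over the 9 rats was 1.32 times its lowest, against 4.85 times for Gsta3. Of the 8 probe sets other than Gsta3, each was brighter than at least 91.7% of all probe sets, and bright signals can be compressed on arrays.

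Gstm1, the mu-class enzyme that conjugates many epoxides, had overlapping ranges in every comparison. It read 18533, 17175 and 13649 in control 1–3, 19064, 16827 and 12814 in CUMS 1–3, and 17037, 19089 and 19212 in CUMS 4–6. The lowest values were those of control 3 and CUMS 3, and the log2 fold changes were -0.03 (SE 0.15) in CUMS 1–3 and 0.17 (SE 0.15) in CUMS 4–6. Gstk1, the kappa enzyme, read 9133, 9740 and 6349 in control 1–3, 8670, 8132 and 7583 in CUMS 1–3, and 9886, 8796 and 9080 in CUMS 4–6. The CUMS 4–6 rats lay above CUMS 1–3, and 2 of them lay within the span of the controls, and the log2 fold changes were -0.03 (SE 0.15) and 0.16 (SE 0.15). Centring on the median signal, or on hepatocyte markers, turned the small negative value of both genes in CUMS 1–3 to 0.02.

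**Figure D2:**
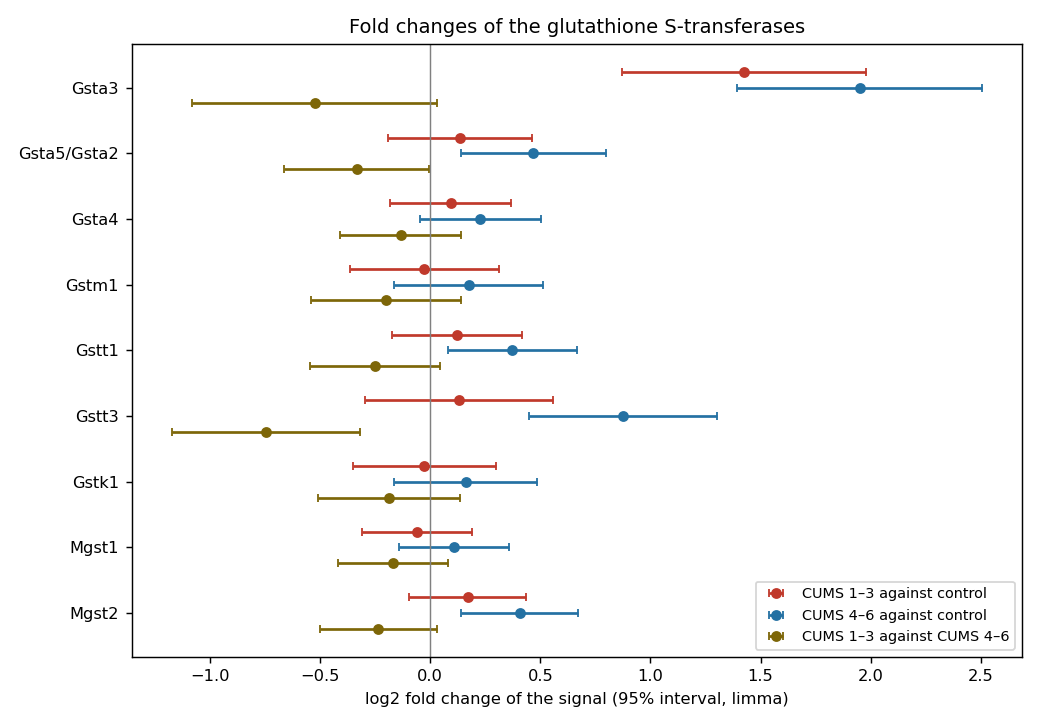
Fold changes (x axis, log2 of the signal) of each probe set (y axis) with 95% limma intervals, colours marking the comparisons. In CUMS 4–6 against control all 9 point estimates are above 0, from 0.11 for Mgst1 (-0.0042 under quantile normalization) to 1.95 for Gsta3, and in CUMS 1–3 against control only Gsta3 has an interval clear of 0 (0.87 to 1.98).

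Counted over the 9 probe sets, 6 had a higher and 3 a lower mean in CUMS 1–3 than in control, with a median log2 fold change of 0.12 against -0.01 for all probe sets tested. Besides Gstm1 and Gstk1, the sign turned for Gsta5/Gsta2 without control 3, for Gstt3 without CUMS 2 and for Mgst1 without control 2 or CUMS 3. None was called, as in the whole array (0 of 18625 probe sets, 0%, with 1259 or 6.76% at an unadjusted p under 0.05). Gsta3 was the only probe set of the 9 that was higher at an unadjusted p under 0.05 (2.59% of all probe sets) and the only one without overlap upward (5.3% of all). None of the 9 was lower at an unadjusted p under 0.05 (4.17% of all) or without overlap downward (6.32% of all). An analysis of variance of the same arrays called 1 probe set, which read Tmem123, and put 977 at an unadjusted p under 0.05. Leaving out control 3 or CUMS 3 raised the count of the 9 at an unadjusted p under 0.05 from 1 to 2. In the former case the added one was Gstk1, at a log2 fold change of -0.22.

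In CUMS 4–6 against control all 9 probe sets had a higher mean, although Mgst1 turned to -0.0042 under quantile normalization and Mgst1 and Gstk1 turned below 0 without control 3. The 9 had a median log2 fold change of 0.37 against -0.02 for all probe sets tested, of which 46.3% were higher. None of the 9 was called (0 of 18625, 0%, with 1170 or 6.28% at an unadjusted p under 0.05). Gsta3, Gstt3, Gsta5/Gsta2, Mgst2 and Gstt1 were higher at an unadjusted p under 0.05, which 2.73% of all probe sets were, and the same 5 had no overlap with the controls, which held upward for 5.34%. None was lower by the first measure (3.55% of all) or the second (6.29% of all). Without control 3 the first count was 4, since Gstt1 left it, and the median was 0.29. In all CUMS rats against control all 9 again had a higher mean, but Mgst1 and Gstk1 lay below 0 when arrays were weighted, Mgst1 also under quantile normalization, and both with Gstm1 without control 3 (median 0.25 against -0.01 for all, of which 47.3% were higher), and none was called (0 of 18625, 0%, with 1477 or 7.93% at an unadjusted p under 0.05). Here 4 were higher at an unadjusted p under 0.05, against 3.07% of all, and Gsta3 alone had no overlap, against 1.52% of all. None was lower by either measure (4.86% and 2.15% of all). The 4 were Gsta3, Gstt3 (0.50, SE 0.17), Mgst2 (0.29, SE 0.10) and Gsta5/Gsta2 (0.30, SE 0.13). Without control 3 the 4 became 2, Gsta3 and Gstt3.

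The stressed groups were then compared with each other, which does not use the control signals except through the shared estimate of the spread. All 9 probe sets had a lower mean in CUMS 1–3 than in CUMS 4–6, with a median log2 difference of -0.24 against 0.01 for all probe sets tested, of which 51.3% were higher in CUMS 1–3. None of the 9 was called (0 of 18625, 0%, with 530 or 2.85% at an unadjusted p under 0.05). Gstt3 (-0.75, SE 0.19, a ratio of 0.597 with an interval of 0.444 to 0.802) and Gsta5/Gsta2 (-0.33, SE 0.15) were lower at an unadjusted p under 0.05, against 1.32% of all probe sets, and every limma adjusted p was 0.9996. Gsta5/Gsta2, Gstt3, Gstk1, Mgst1 and Mgst2 did not overlap between the groups, against 4.37% of all downward, and none lay without overlap upward (4.75% of all). The Gsta3 difference was -0.52, with an interval from -1.08 to 0.03 that includes 0. The count of 2 fell to 1 without control 2, an array of neither group, and to 1 without CUMS 5. Rats within a group also differed, and CUMS 3 held the lowest signal of the 6 stressed rats in 7 of the 9 probe sets.

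Over all rats the probe sets tended to vary together, but within groups Gsta3 did not follow most others. All 36 pairs had a positive Pearson correlation of log2 signals over the 9 arrays, from 0.085 to 0.905 with a median of 0.626. Once the group means were removed, the median was 0.326. Gsta3 was then positive only with Gsta4 (0.393) and negative with all others, from -0.151 for Gsta5/Gsta2 to -0.705 for Gstt1. Gsta4 was also negative with some, such as Gstt1 (-0.657) and Mgst2 (-0.526). These points share the array and its scaling, and the values are a description only. Control 3 had the lowest signal of the controls in 6 of the 9 probe sets and of all rats in 5. Against the control mean, the median log2 difference over the 9 was -0.23 in control 3, 0.20, 0.18 and -0.06 in CUMS 1–3, and 0.31, 0.46 and 0.27 in CUMS 4–6. CUMS 3 thus stood below the other stressed rats, and the CUMS 4–6 rats stood above the rest.

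The markers of hepatocytes and of other cells also differed between rats. Of 11 hepatocyte markers on the array, such as albumin, all 11 lay above the array median in every rat. Their summed signal was 303573, 308808 and 253203 in control 1–3, 290244, 290473 and 251943 in CUMS 1–3, and 298858, 307666 and 324866 in CUMS 4–6. Control 3 and CUMS 3 were the lowest, as they were for Gstm1. Periportal markers, 10 of 10 above the array median in every rat, were lowest in the same rats (111395 and 128264, against 147143 to 161401 elsewhere). Pericentral markers, 7 of 10 above it, summed to 95399 in CUMS 6 and 49312 to 64931 elsewhere. Macrophage markers, 9 of 9 above it, summed to 25966 to 32244 in controls, 18743 to 27752 in CUMS 1–3 and 19229 to 30046 in CUMS 4–6. In control 3 the markers of stellate cells and fibroblasts summed to 36483 against 9476 and 9886 in the other controls and 5851 to 9078 in stressed rats, and 8 of the 13 lay above the array median in every rat. Its bile duct markers summed to 10751 against 1701 and 1930 in the other controls and 1332 to 2031 in stressed rats, with 3 of 7 above the array median in every rat and Krt7 and Cldn4 below it in all. Its proliferation markers summed to 3017 against 800 and 801 in the other controls and at most 841 in stressed rats, with 0 of 7 above the array median in every rat. The stellate and bile duct sums were lowest in CUMS 3 and highest in control 3. The array of control 3 also had the lowest median correlation with the others (0.951 against 0.965 to 0.972). The ratio of 3′ to 5′ actin signal, a measure of RNA integrity, was 5.23 in CUMS 2 and 4.96 in CUMS 4 and 2.51 to 3.73 in the other rats. Of 7 pancreas markers, 6 lay below the array median in every rat. The part of cell content and RNA integrity in the transferase values was not tested. Gsta3 was as far apart without control 3, at a log2 fold change of 1.46 in CUMS 1–3 and 1.98 in CUMS 4–6. With each array centred on the hepatocyte markers, which took the median of all probe sets from -0.02 to -0.10 in CUMS 4–6 against control and from 0.01 to 0.13 in CUMS 1–3 against CUMS 4–6, the values were 1.87 for Gsta3, 0.79 for Gstt3 and 0.39 for Gsta5/Gsta2 in CUMS 4–6 against control. Under the same centring the median difference of the 9 between CUMS 1–3 and CUMS 4–6 was -0.11. All 9 means stayed lower in CUMS 1–3. The centring moves every probe set of an array by the same amount, so it cannot show the part of hepatocyte content in any of them.

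**Figure D3:**
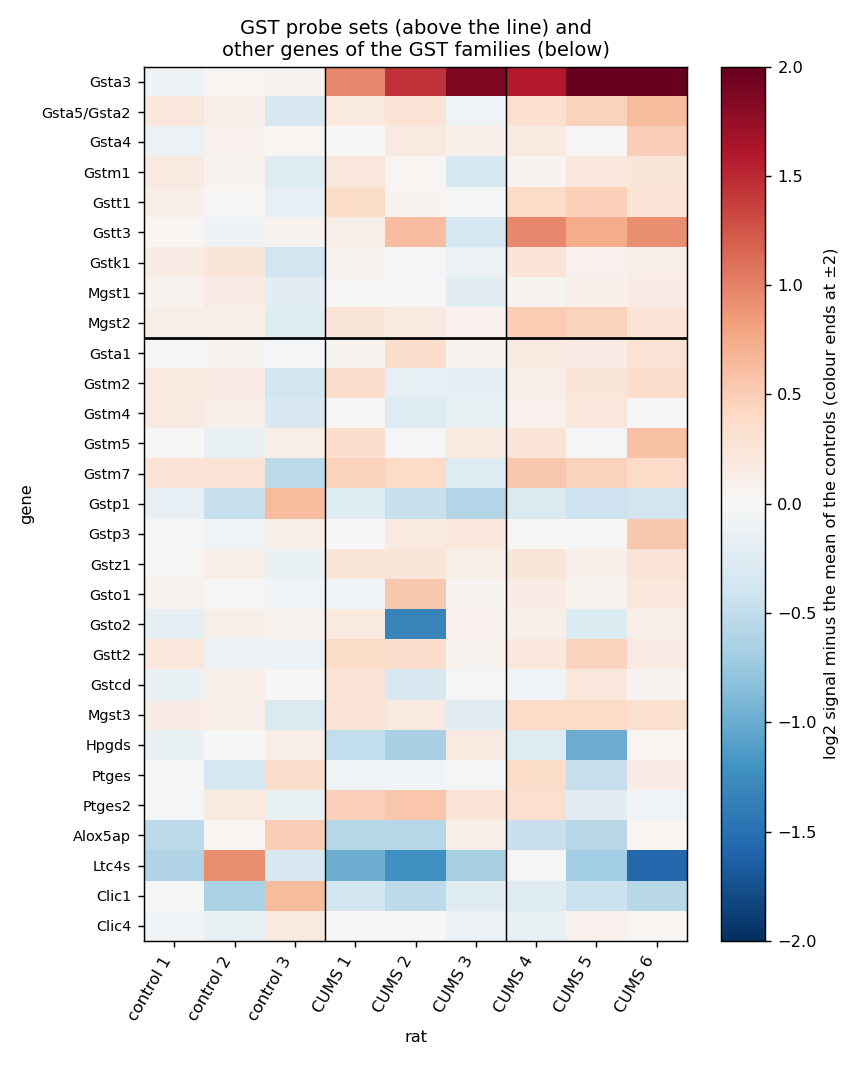
Colour map of log2 signal minus the control mean (colour ends at ±2) for each rat (columns) and gene (rows), with the 9 probe sets above the line and other genes of the transferase families below. The Gsta3 row is high in all 6 stressed rats, and control 3 has a median of -0.23 over the 9 probe sets.

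Of the other genes of the transferase families, 20 passed the filter, among them related genes without a Gst or Mgst symbol, such as Clic1 and Ltc4s. In CUMS 1–3 against control 10 had a higher and 10 a lower mean (median log2 fold change -0.01, against -0.02 for 10403 genes). In CUMS 4–6 the split was 13 and 7 (median 0.09). The 7 lower were Gstp1, Gsto2, Hpgds, Alox5ap, Ltc4s, Clic1 and Clic4. Among genes with a Gst or Mgst symbol, only Gstp1 (-0.36, SE 0.235) and Gsto2 (-0.01, SE 0.37) had a lower mean there. For Gstp1, which is also one of the bile duct markers, control 3 read 1410 against 809 and 659 in the other controls. For Clic1 control 3 was the highest rat too, at 1909 against 1214 and 795. None of the 20 was called. At an unadjusted p under 0.05, 1 was higher and 1 lower in CUMS 1–3, where 2.58% of all genes were higher and 5.23% lower, and 1 was higher and none lower in CUMS 4–6, against 3.18% and 4.19% of all. Without control 3 the counts were 0 higher and 2 lower in CUMS 1–3 and 0 of either kind in CUMS 4–6. Gsta1, the alpha-class neighbour of Gsta3 on chromosome 9 (31199887-31216606), read 18152, 19262 and 17986 in control 1–3. Its signals were 19141, 23452 and 19193 in CUMS 1–3 and 20856, 20382 and 22526 in CUMS 4–6. CUMS 4–6 lay above the controls, with log2 fold changes of 0.15 (SE 0.10) in CUMS 1–3 and 0.20 (SE 0.10) in CUMS 4–6. Ptges2, a prostaglandin E synthase, read 1063, 1123 and 928 in CUMS 1–3 against 687 to 878 in the controls, at 0.43 (SE 0.16, limma adjusted p = 0.732). Ltc4s, the leukotriene C4 synthase, was lower in CUMS 1–3 (527 to 782) than in control 1–3 (813, 2351 and 995), at -0.96 (SE 0.42, limma adjusted p = 0.738). Control 2 was by far the highest rat, and CUMS 4 (1224) lay above the other controls. Gstz1, which takes part in tyrosine breakdown, and the theta-class gene Gstt2 stood at 0.21 (SE 0.08) and 0.27 (SE 0.12) over all CUMS rats. Mgst3, the remaining microsomal enzyme, read 13463, 13626 and 12907 in CUMS 4–6 against 8491 to 11559 in the controls, at 0.36 (SE 0.15, limma adjusted p = 0.770).

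Genes that make and reduce glutathione had a higher mean in 17 of 25 cases in CUMS 1–3 (median 0.08) and in 20 of 25 in CUMS 4–6 (median 0.13), and none was called. Without control 3 these counts were 13 (median 0.02) and 18 (median 0.13). At an unadjusted p under 0.05, 2 were higher and 1 lower in CUMS 1–3 (2.58% and 5.23% of all genes), and 2 were higher in CUMS 4–6 (3.18% of all). Without control 3 these became 0, 0 and 1. Gclc, the catalytic subunit of the rate-limiting enzyme of glutathione synthesis, read 1900, 1935 and 2054 in control 1–3 and 3165, 3662 and 1823 in CUMS 1–3. The CUMS 1–3 mean thus came from CUMS 1 and CUMS 2, since CUMS 3 lay below the controls, and the log2 fold change was 0.49 (SE 0.22, limma adjusted p = 0.738). In CUMS 4–6 Gclc read 1850, 2389 and 2231, at 0.13 (SE 0.22). Ahcy, which splits S-adenosylhomocysteine on the way to cysteine, was at 0.34 over all CUMS rats (SE 0.11, limma adjusted p = 0.546). The peroxidases Gpx3 and Gpx7 had lower means in stressed rats over all CUMS (-0.83, SE 0.35, and -0.66, SE 0.27), and in both control 3 was the highest rat (1880 for Gpx3 against 504 and 581 in the other controls, 557 for Gpx7 against 293 and 215).

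Genes that export conjugates or process them to mercapturates were split evenly, with 8 of 17 higher in CUMS 1–3 (median -0.01) and 9 of 17 in CUMS 4–6 (median 0.02). None was called, and at an unadjusted p under 0.05 only Abcc3, a basolateral exporter, was lower, in CUMS 4–6, where 4.19% of all genes were. It read 125, 128 and 313 in control 1–3, 95.4, 50.2 and 128 in CUMS 1–3 and 102, 24.6 and 55.6 in CUMS 4–6, so control 3 was again highest. The log2 fold change in CUMS 4–6 was -1.73 (SE 0.56, limma adjusted p = 0.744), and without control 3 no gene of the list had an unadjusted p under 0.05.

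Targets of NRF2 outside the transferases had a higher mean in 14 of 21 cases in CUMS 1–3 (median 0.08) and in 17 of 21 in CUMS 4–6 (median 0.18), and none was called. Without control 3 the counts were 11 (median 0.01) and 14 (median 0.16). Gclc, Gclm and Gsr also belong to the glutathione list, and Abcc3 and Abcc4 to the export list, so these lists are not independent. Nqo1, a quinone reductase, and Hmox1, the heme oxygenase, had lower means in CUMS 1–3, at -0.43 (SE 0.24) and -0.99 (SE 0.52), and in CUMS 4–6, at -0.29 (SE 0.24) and -0.95 (SE 0.52). For Hmox1 control 3 was again the highest rat, at 4604 against 1338 and 1909 in the other controls. Osgin1 and Ephx1, the microsomal epoxide hydrolase, were higher in CUMS 4–6 at an unadjusted p under 0.05, at 0.82 (SE 0.31) and 0.35 (SE 0.14), and Abcc3, which this list also holds, was lower, against 3.18% and 4.19% of all genes. Without control 3 these counts were 1 higher and 0 lower. Ephx1 read 11501, 14509 and 12179 in CUMS 4–6, all above the controls (8753 to 11021), whereas the ranges of Osgin1 overlapped. Of the regulators of transferase transcription, 8 of 15 had a higher mean in CUMS 1–3 (median 0.02) and 10 of 15 in CUMS 4–6 (median 0.09), and none was called. Without control 3 these were 6 (median -0.07) and 8 (median 0.02). Nfe2l2, which encodes NRF2, stood at -0.01 (SE 0.17) and 0.04 (SE 0.17), and Keap1, its inhibitor, at 0.08 and 0.12 (SE 0.14 each). Nr1i3, which encodes CAR, read 384, 212 and 388 in control 1–3, 518, 744 and 766 in CUMS 1–3 and 365, 619 and 720 in CUMS 4–6. CUMS 1–3 lay above all controls and CUMS 4 lay among them, at 1.07 (SE 0.30, limma adjusted p = 0.637) and 0.79 (SE 0.30, limma adjusted p = 0.757). Mafg, a small MAF partner of NRF2, was at 0.45 (SE 0.16, limma adjusted p = 0.722) in CUMS 1–3.

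Targets of CAR and PXR outside the transferases had the highest medians of these lists, although without control 3 the NRF2 targets and the glutathione genes had higher ones in CUMS 4–6. The 23 listed genes gave 18 probe sets with 1 symbol, of which 17 passed the filter. Cyp2b1, Cyp2b2 and Ugt1a1 were not among the 17. In CUMS 1–3, 11 of 17 had a higher mean (median 0.22), and in CUMS 4–6, 14 of 17 (median 0.26). None was called, and at an unadjusted p under 0.05, 6 were higher and 2 lower in CUMS 1–3 and 5 were higher in CUMS 4–6, against 2.58%, 5.23% and 3.18% of all genes. The 2 lower were Cyp3a9 (-0.68, SE 0.31) and Gadd45b (-1.14, SE 0.43). The list holds Cyp3a18, Ugt2b1, Sult2a2, Aldh1a1 and Slco1a4 (Slco1a2 in the study), which the study had reported as higher from arrays of this series. Its counts and medians are therefore not independent of that report. Without control 3 the medians were 0.24 and 0.11, with 7 higher and 0 lower in CUMS 1–3 and 5 higher in CUMS 4–6. Aldh1a1, a retinal dehydrogenase, read 3654, 2435 and 3803 in control 1–3, 5791, 8233 and 6601 in CUMS 1–3 and 6298, 9777 and 8595 in CUMS 4–6. All stressed rats lay above the controls, as for Gsta3, at 1.20 over all CUMS rats (SE 0.18, limma adjusted p = 0.147). Slco1a4, an uptake transporter, and Ugt2b1, a glucuronosyltransferase, also had no overlap with the controls, at 0.74 (SE 0.13) and 0.79 (SE 0.14), each with a limma adjusted p of 0.290.

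**Figure D4:**
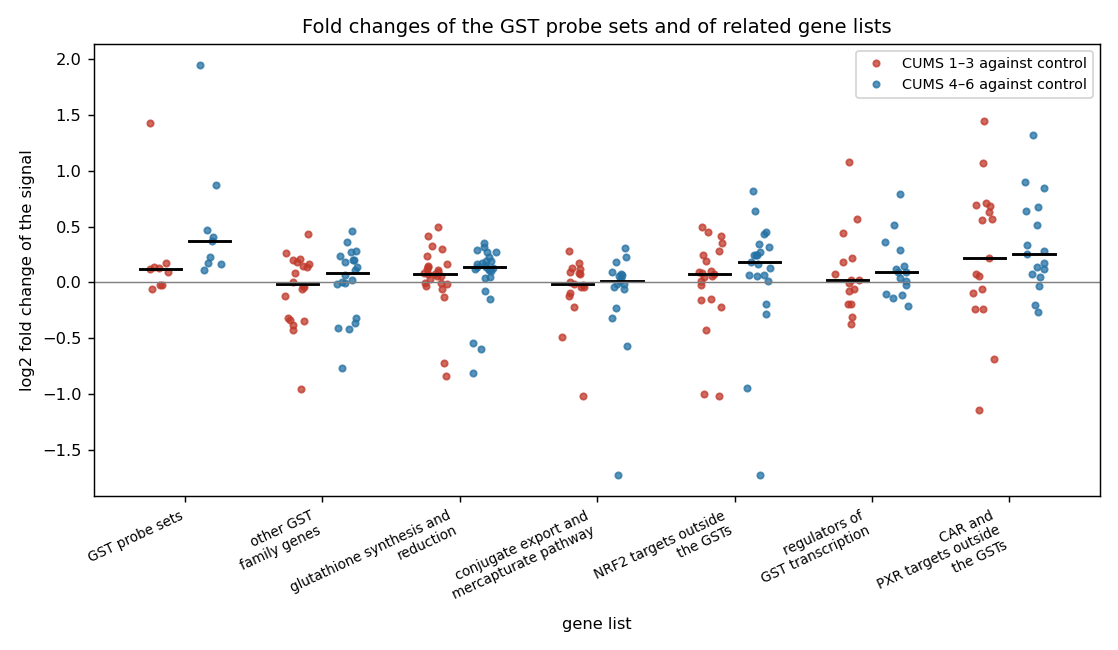
Log2 fold changes of the signal (y axis) of single genes for the transferase probe sets and each related gene list (x axis), for CUMS 1–3 and CUMS 4–6 against control, with short lines at the medians. The medians of the 9 probe sets are 0.12 and 0.37, and those of the CAR and PXR targets are 0.22 and 0.26. The CAR and PXR list holds genes that the study had reported as higher from arrays of this series.

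The genes whose log2 signal was most like that of Gsta3 over the 9 arrays, by Pearson correlation among probe sets with 1 symbol, were LOC102547042 (0.951), Man1a1 (0.923), Mmut (0.920), Eps8l2 (0.920) and Zfp212 (0.920). LOC102547042 read 97.9 to 105.5 in the controls and 132 to 161 in stressed rats, and Eps8l2 read 1252 to 1329 and 1575 to 2239. In both every stressed rat lay above every control. The points are 9 arrays that share 1 scaling method, the 5 were picked from all probe sets for this likeness, and no test is given.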

How the data were processed

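Liver RNA of 9 GK rats (1 array each) was measured on Affymetrix rat 3′ arrays. Per the labels, MAS 5.0 was the authors' software, and the deposited table holds linear intensities of 31099 probe sets, with a trimmed mean of about 500.2 on every array. Here, 57 control probe sets were dropped, a floor of 1 was put under 586 dimmer signals, log2 was taken, and the dimmest 40% by mean were removed, which kept 18625. Of 31042 probe sets, the array annotation gave 20826 a single symbol, 436 several and 9780 none. The 3 groups, taken from the symptom label, were fitted together in R 4.3.3 with limma 3.58.1 (trend, 6 residual degrees of freedom), and p was adjusted over all probe sets. For arrays, their number limits the precision. A gene of the related lists or a marker was read by its brightest probe set with a symbol of its own, and was left out where it had none. A shared probe set was used only for Gsta5 and Gsta2. From each gene list up to 5 genes with the smallest p in CUMS 1–3 or all CUMS against control were named. Mgst3, Ephx1, Nfe2l2, Keap1, Tmem123, Cyp3a9, Gadd45b and genes named only for the direction of their mean were chosen after their values were seen. Members and lists were chosen with earlier results of these data known. Scripts were tested on simulated data. Alternatives were other normalizations, filters, variance models, an analysis of variance (the test the methods name) and leaving out each rat. Centring on hepatocyte markers, the counts of members at an unadjusted p, and the lists without control 3 were added after the data were seen. Equal replicate numbers gave no sign of pairing (correlations of deviations 0.003, -0.049 and 0.14). Promoter windows were read from RefSeq (GRCr8). Protein sequences were not used here.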

Additional observations from a re-analysis of the deposited data

Results flagged for a closer look

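Gstm1 in CUMS 3 (12814) lay far below the other 5 stressed rats (16827 to 19212). The gap to the nearest of them, divided by the whole range of the 6 on the log2 scale, was 0.673, above Dixon's 95% critical value of 0.625. Chance puts about 1 in 20 groups past this value, and both ends of the 9 probe sets were examined. CUMS 3 also had the lowest summed hepatocyte marker signal of all rats (251943), and the part of this in the Gstm1 value was not tested.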

How the results depend on the processing

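No probe set was called in any setting but these. An analysis of variance called 1 in CUMS 1–3 against control (Tmem123, log2 fold change -0.47, adjusted p = 0.00096), and median centring called 1 in CUMS 4–6 and 1 in all CUMS rats against control, Gsta3 each time. Over all alternatives the log2 fold change of Gsta3 ran from 1.07 to 1.65 in CUMS 1–3 (limma or analysis of variance adjusted p from 0.227 to 0.933), from 1.51 to 2.13 in CUMS 4–6 (0.0292 to 0.836) and from 1.29 to 1.80 in all CUMS rats (0.0288 to 0.544). Signs turned only where the value was small. In CUMS 1–3 against control, Gstm1 became 0.022 under median centring and 0.0194 under hepatocyte centring, and Gstk1 0.0222 and 0.0196. Mgst1 became -0.0042 in CUMS 4–6 and -0.0207 in all CUMS rats under quantile normalization, and with array weights Mgst1 was -0.0127 and Gstk1 -0.0167 in all CUMS rats. Leaving out 1 rat at a time, the values in CUMS 1–3 ran from -0.16 to 0.13 for Gstm1, from -0.22 to 0.0919 for Gstk1, from -0.18 to 0.0197 for Mgst1, from -0.0249 (without control 3) to 0.25 for Gsta5/Gsta2 and from -0.11 (without CUMS 2) to 0.37 for Gstt3. In CUMS 4–6 they ran from -0.0089 to 0.19 for Mgst1 and from -0.0293 to 0.28 for Gstk1, and in all CUMS rats from -0.0932 to 0.10 for Mgst1, from -0.0547 to 0.17 for Gstm1 and from -0.12 to 0.19 for Gstk1, each low end without control 3. In all other cases direction and side of the threshold were kept, and the difference between CUMS 1–3 and CUMS 4–6 kept its direction in every setting for all 9. The causes were not tested. The count of the 9 at an unadjusted p under 0.05 in all CUMS rats was 4, and 2 under median centring and with 2 groups only, and 1 by analysis of variance. Between the stressed groups the 2 became 1 without a filter, with the upper 40% only, without a trend and under hepatocyte centring, and 0 by analysis of variance. With the replicate block, Gsta3 stood at 1.43 in CUMS 1–3 (limma adjusted p = 0.315) with 0 called, and the equal numbers do not pair the rats. The alternative of another probe set per gene was not run, since each gene had 1.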
